A study of Mus musculus with 8 samples.

Results

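The 43 genes described here are interferon-stimulated genes and the receptors, transcription factors and RNA or DNA sensors that control them. They were chosen by name, with earlier results of these data known. A probe was assigned to a gene when the RefSeq accession printed for it in the scanner files belonged to that gene. Of the 43 genes, 41 were matched to a probe and all 41 were tested. No probe was matched to Mx1 or Mx2, a pair of antiviral GTPases, and they have no value here. The 41 genes stand among 20145 gene symbols on the array and 25216 features tested. A feature is a gene symbol or, for probes with no symbol, the target name printed for them, which several probes can share.

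Ovarian RNA from cycling mice was hybridised to 8 one-colour Agilent arrays. The labels give 3 arrays of healthy wildtype ovary and 5 arrays of ovarian neoplasia, with the genotype written Pgrcre/+mPgrLsL/+ on the samples and Pgrcre/+PgrBLsL/+ in the series design, all from mice of 33 weeks. In the second group a cre allele at the progesterone receptor locus, Pgr, acts on a lox-stop-lox allele that carries the B form of the receptor, so recombination follows the cells that express Pgr, and no array of cre or of the lox-stop-lox allele alone is among the 8. The question put to the arrays is which transcripts differ in the ovaries with neoplasia. No label says that the arrays of a group come from separate animals, so the p-values reflect how far these samples scatter, which may be partly technical. Ovaries were flash frozen whole, so more cells of a type and more RNA per cell cannot be told apart in any value below.

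Interferons are secreted proteins that cells release when they detect nucleic acid in the wrong place or receive immune signals. Type I interferons bind the receptor pair Ifnar1 and Ifnar2, whose kinases activate Stat2, which with Irf9 is part of a complex that binds the interferon-stimulated response element (ISRE) before target genes. Interferon gamma binds Ifngr1 and Ifngr2, and its targets carry a second element, the gamma-activated site (GAS). Target genes encode antiviral enzymes, sensors and guanylate-binding proteins, and many of the factors are themselves targets.

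The sequences that carry these elements were read from the promoter windows of RefSeq (GRCm38.p6), which run from 250 bases before to 50 bases after each annotated start, and 34 of the 43 genes had a window. The ISRE was searched as TTTCNNTTTC and the GAS as TTCNNNGAA, on both strands. Stretches of 4 genes that were higher in neoplasia and of 3 that did not pass the test are shown, because the element is present on both sides of that line. Each is written 5′ to 3′ on the strand of its gene, with the ISRE match in capitals. Matches overlap within the capitals of Isg15 and Bst2, and a run of GAAA in capitals is the match on the opposite strand.
Isg15: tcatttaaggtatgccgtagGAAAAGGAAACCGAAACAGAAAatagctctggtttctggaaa
Rsad2: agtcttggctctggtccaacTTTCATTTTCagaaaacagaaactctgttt
Oas3: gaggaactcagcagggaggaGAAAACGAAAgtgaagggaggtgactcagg
Cxcl10: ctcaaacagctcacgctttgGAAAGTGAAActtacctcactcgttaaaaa
Ifit1: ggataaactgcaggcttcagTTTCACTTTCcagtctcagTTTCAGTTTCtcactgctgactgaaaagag
Bst2: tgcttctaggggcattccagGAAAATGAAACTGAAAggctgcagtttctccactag
Gbp2: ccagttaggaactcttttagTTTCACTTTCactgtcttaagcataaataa

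In the same order the stretches lie at chr4:156200855-156200916 (minus strand), chr12:26456543-26456592 (minus), chr5:120777705-120777754 (minus), chr5:92349073-92349122 (minus), chr19:34640765-34640833 (plus), chr8:71537567-71537622 (minus) and chr3:142620584-142620633 (plus), all outside the annotated span of the gene. The first 4 belong to genes higher in neoplasia and the last 3 to genes that did not pass. An ISRE match was present in the window of 16 of the 34 genes (47.1%), beside 3.99% of 27025 genes in the whole table. Among the genes with a window it was present in 5 of 10 that were higher in neoplasia (50%) and in 11 of 24 that did not pass (45.8%). A GAS match was present in 11 of 34 genes (32.4%), beside 9.55% of all genes, and in 3 of 10 and 8 of 24 of those groups. The 34 genes have 41 windows. A window follows 1 annotated transcript start, which for several genes, among them Oas1a, Ifit3, Irf7 and Irf5, lies inside the gene's outer span. The matches are descriptions of letters in a window of 300 bases. No factor's binding was measured.

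Values are given on 1 scale, the log2 signal of the gene's probe minus the log2 signal at the 75th percentile of that array, so 0 is the 75th percentile of the array and a difference of 1 is a doubling. Differences are neoplasia minus wildtype from a limma fit with its standard error (SE), and adjusted p-values are Benjamini-Hochberg values over all 25216 features, called at 0.05. Probes differ in how well they hybridise, so levels are compared between arrays for 1 gene and never between genes. The 75th percentile signal was 460–515 on the wildtype arrays and 307–426 on the neoplasia arrays, and 33737–34147 and 29332–32920 probes were well above background. One probe for Pgr read -4.25, -4.19 and -7.21 on wildtype 1 to 3 and 4.0, 3.26, 4.88, 4.28 and 3.13 on neoplasia 1 to 5, a difference of 9.13, and a second Pgr probe read -2.86, -2.05 and -4.95 on wildtype and -6.96, -7.31, -7.37, -6.80 and -6.57 on neoplasia, and was not well above background on any neoplasia array. Of 10 ovary markers 8 were lower in neoplasia, beside 13.3% of all features. Fshr, Lhcgr, Cyp19a1 and Amh had no neoplasia array well above background. Neoplasia 5 shared a slide row with the 3 wildtype arrays, and neoplasia 1 to 4 lay in the other row.

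Of the 41 genes, 11 were higher in neoplasia and none was lower, and 30 did not pass the test. Oas3, one of the 11, was tested only because of its detection on 3 neoplasia arrays, and among the 40 genes detected on all 8 arrays 10 were higher, beside 21.2% of all such features. The 11 were the receptor subunits Ifngr1 and Ifnar2, the factor Irf7, the sensor Zbp1, the ubiquitin-like protein gene Isg15, the chemokine gene Cxcl10 and the 5 antiviral effector genes Isg20, Oas3, Rsad2, Oasl1 and Oas1a. The 26.8% of the genes that were higher stands beside 17.0% of all features higher, and the 0 lower genes stand beside 13.3% of all features lower. At an unadjusted p under 0.05, 15 of the 41 were higher and 1, Bst2, was lower. In 37 of the 41 (90.2%) the fitted difference was above 0, beside 56.3% of all features, though in the authors' unscaled values it was above 0 in 24 and after spike-in scaling in 23. The median difference was 0.69, from -1.16 for Bst2 to 3.38 for Isg20, beside a median of 0.14 over all features.

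**Figure D1:**
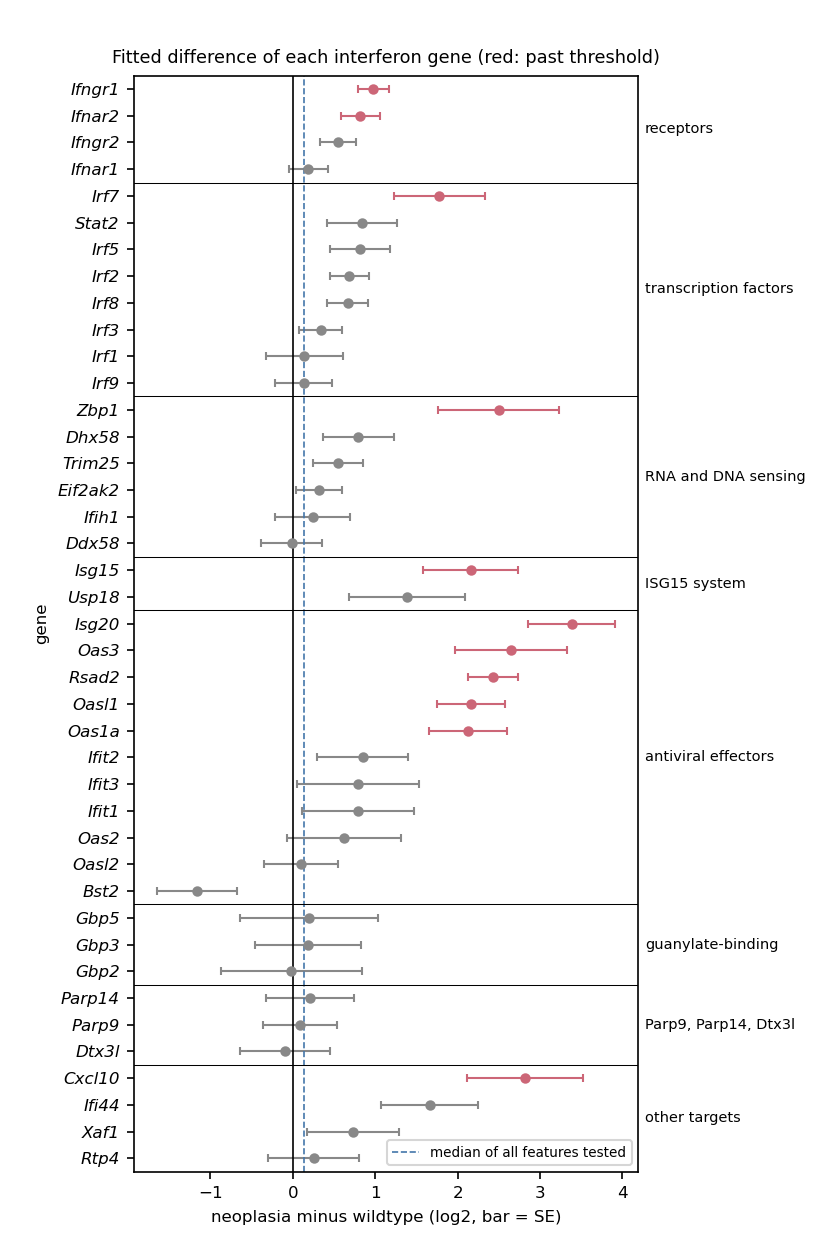
Fitted difference of each of the 41 interferon genes, neoplasia minus wildtype on the log2 scale, with bars of 1 SE, grouped by role. Red points are the 11 genes past the threshold, the dashed line is the median of all features (0.14), and Bst2 at -1.16 is the farthest to the left.

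The groups did not overlap for 15 of the 41 genes (36.6%), beside 39.1% of all features, so that share was close to the background. Neoplasia was the higher group in 14 of these 15 genes, beside 5833 of the 9849 features without overlap (23.1% of all features). It was the lower group in 1, Bst2, beside 4016 of the 9849 (15.9% of all features). The count of genes called rested on the wildtype arrays: it was 5, 4 and 4 without wildtype 1, 2 and 3, where the share of all features called also fell, from 30.3% to 11.2%, 12.7% and 16.1%. Ifngr1, Isg20, Oasl1 and Rsad2 were called under each of the 8 fits that left out 1 array. Without neoplasia 5 the count was 17 (41.5%), and the share of all features called higher was 22.6%. When slide row was added to the fit as a block, only neoplasia 5 could be set against wildtype, and Rsad2 alone was called, with 6.05% of all features. The median of the 41 genes was then 0.10 and that of all features 0.05, a gap of 0.05 with 22 of the 41 genes above the median of all features. Within the row that holds neoplasia 5, a fit of that 1 array against the 3 wildtype arrays called Ifnar2, Isg15, Oas1a, Oasl1, Rsad2 and Zbp1 higher (6 of 41, 14.6%, beside 10.4% of all features) and Bst2 lower. That fit assumes that the lone array varies as the wildtype arrays do.

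Scaling moved the counts as well. The median of all features was -0.34 in the authors' deposited log2 values, which carry no scaling between arrays, and -0.47 after scaling to spike-in probes, and the counts of interferon genes higher were then 6 (14.6%, beside 6.06% of all features) and 3 (7.32%, beside 2.93%). The share of all calls that were higher was 56.0% here, 66.4% with another background correction (normexp), 19.9% in the authors' values and 15.2% with spike-ins. The median of the 41 genes stood above the median of all features by 0.55 here, by 0.53 in the authors' values, by 0.54 with quantile normalization and by 0.41 with normexp. Spike-in scaling shifts every feature of an array alike and leaves that gap as it is. It used the 6 of 10 spike-in probes that were above background on all arrays. Their mean log2 signal was 8.05 on neoplasia 1 and 9.13–9.85 on the other arrays, so this scaling raised neoplasia 1 relative to the rest. The authors' values are the same signals without scaling and differ mostly by 1 constant per array, so their gap is not a separate check. Cxcl10, Isg20 and Rsad2 were called higher under all 5 of these scalings. The fitted difference of each of the 11 called genes was above 0 under every alternative run.

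The receptors come first in the pathway. Ifngr1, the ligand-binding chain of the interferon gamma receptor, read 2.65, 2.62 and 2.52 on wildtype 1 to 3 and 3.55, 3.78, 3.72, 3.6 and 3.21 on neoplasia 1 to 5. All 5 neoplasia arrays lay above the wildtype arrays, and the lowest was neoplasia 5. The difference was 0.98 ± 0.19 (SE), 1.97-fold, adjusted p = 0.00849. Ifnar2, a chain of the type I receptor, read 2.73, 2.99 and 2.83 on wildtype and 3.21, 3.57, 4.18, 3.61 and 3.79 on neoplasia. The groups did not overlap, with neoplasia 1 the nearest to wildtype and neoplasia 3 the farthest. The difference was 0.82 ± 0.24, adjusted p = 0.0344, and it was not called without wildtype 1, 2 or 3 or neoplasia 3 or 4, where adjusted p reached 0.131. The partner chains did not pass. Ifngr2 read 2.19, 2.58 and 2.56 on wildtype and 2.57, 3.23, 3.16, 2.91 and 3.09 on neoplasia, a difference of 0.55 ± 0.22 (adjusted p = 0.0854). Its lowest neoplasia value, on array 1, lay within the wildtype range. Ifnar1 differed by 0.19 (adjusted p = 0.569), and its other probes by 0.12 and 0.39. Ifnar1, Ifnar2 and Ifngr2 lie near each other on mouse chromosome 16, at chr16:91485032-91510523, chr16:91372783-91405589 and chr16:91547059-91564007 (GRCm38.p6).

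Among the 8 transcription factors, 1 was higher (12.5%, beside 17.0% of all features). Irf7, the factor that amplifies type I interferon production, read -1.99, -1.81 and -1.95 on the wildtype arrays and 0.15, 0.32, 1.22, -1.01 and -1.35 on the neoplasia arrays. Each neoplasia array lay above wildtype, but neoplasia 4 and 5 were within 1 log2 unit of the wildtype mean and neoplasia 3 was the highest. The difference was 1.78 ± 0.55 (SE), 3.43-fold, adjusted p = 0.0413. It passed with every array in, without neoplasia 4 and without neoplasia 5, and it missed the threshold without any 1 of the other 6 arrays, where adjusted p reached 0.126.

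Irf2, which can repress or activate interferon targets, and Irf8, a factor of macrophage and dendritic cell development, had no overlap between groups and did not pass. Irf2 differed by 0.69 ± 0.24 (adjusted p = 0.0616) and Irf8 by 0.66 ± 0.25 (adjusted p = 0.0786). Irf2 read -0.78, -0.64 and -0.95 on wildtype and -0.30, 0.19, 0.33, -0.17 and -0.55 on neoplasia, so its neoplasia 5 value was the closest to wildtype. Irf3, which is present before induction and starts the type I response, read 4.50, 4.58 and 4.64 on wildtype and 5.24, 5.07, 5.16, 4.90 and 4.20 on neoplasia and differed by 0.34 (adjusted p = 0.339). Its neoplasia 5 value lay below all 3 wildtype values. Stat2 differed by 0.84 (adjusted p = 0.162), Irf5 by 0.81 (adjusted p = 0.119) and Irf9 by 0.13 (adjusted p = 0.792). Irf1, a factor of the interferon gamma response, read 3.16, 2.90 and 3.0 on wildtype and 2.40, 4.24, 3.88, 2.27 and 3.02 on neoplasia, with neoplasia 2 and 3 above wildtype, neoplasia 1 and 4 below it and neoplasia 5 inside its range. A second Irf1 probe had no array well above background.

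Of the 6 sensors, 1 was higher (16.7%, beside 17.0% of all features). Zbp1, a sensor of Z-form nucleic acid that can start cell death, read -2.64, -2.84 and -3.03 on wildtype and -0.34, 1.25, 0.85, -2.08 and -1.34 on neoplasia. All 5 neoplasia arrays lay above wildtype, with neoplasia 4 the nearest to it and neoplasia 2 the farthest. The difference was 2.5 ± 0.73, 5.67-fold, adjusted p = 0.0352. Its second probe read -3.07, -3.42 and -3.84 on wildtype and -1.42, 0.13, 0.09, -3.35 and -2.82 on neoplasia, a difference of 1.97 that did not pass (adjusted p = 0.106), and the first was not called without wildtype 1, 2 or 3 or neoplasia 1 or 3 (adjusted p up to 0.102). Trim25, a ubiquitin ligase that activates RIG-I, read 4.81, 4.75 and 5.07 on wildtype and 5.05, 5.40, 5.48, 6.24 and 4.98 on neoplasia and differed by 0.55 (adjusted p = 0.19), with neoplasia 4 the highest. Dhx58, a helicase related to RIG-I, differed by 0.80 (adjusted p = 0.187), and Eif2ak2, the kinase PKR, by 0.32 (adjusted p = 0.407). Ddx58, which encodes RIG-I, differed by -0.01 and Ifih1, which encodes MDA5, by 0.24. The Ifih1 probe read 0.26, 0.23 and 0.25 on wildtype and -0.08, 1.08, 1.67, -0.24 and 0.01 on neoplasia. Neoplasia 2 and 3 were above the wildtype arrays and neoplasia 1, 4 and 5 below them. Its second probe was not well above background on neoplasia 1, 4 and 5 and is given no difference.

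Isg15 and Usp18 form a pair in which Isg15 is attached to proteins and Usp18 removes it. Isg15 read 1.13, 0.86 and 1.19 on wildtype and 3.34, 3.74, 4.67, 1.87 and 2.46 on neoplasia, all 5 above wildtype and neoplasia 4 the lowest of them. The difference was 2.16 ± 0.58 (SE), 4.47-fold, adjusted p = 0.0264, and a second probe differed by 2.13 (adjusted p = 0.0362). It was not called without wildtype 1, 2 or 3, where adjusted p reached 0.0907. Usp18 read 0.39, 0.36 and -1.19 on wildtype and 2.66, 0.91, 2.01, 1.12 and -0.50 on neoplasia, a difference of 1.39 ± 0.70 that did not pass (adjusted p = 0.161). Neoplasia 5 lay inside the wildtype range of Usp18, and without that array the gene was called.

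The antiviral effectors held 5 of the 11 called genes, among 11 measured (45.5%, beside 17.0% of all features higher). Of these 5, Oas3 was tested only because of its detection on neoplasia arrays. Rsad2, which encodes viperin, read -1.47, -0.69 and -1.85 on wildtype and 0.75, 0.81, 1.48, 1.28 and 1.12 on neoplasia. The 5 neoplasia values lay within 0.73 of each other and above every wildtype value. The difference was 2.43 ± 0.30 (SE), 5.38-fold, adjusted p = 0.0013. It was called under each of the 19 alternatives run, with the adjusted p at most 0.0438. Isg20, an RNA exonuclease, read 1.99, 3.17 and 1.52 on wildtype and 6.68, 4.67, 5.52, 6.13 and 5.06 on neoplasia, and here neoplasia 1 and 4 were the highest. The difference was 3.38 ± 0.53, 10.4-fold, adjusted p = 0.00358, and a second probe gave 3.39 (adjusted p = 0.00391).

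The oligoadenylate synthetase family makes the messenger that activates RNase L. Oas1a read 1.08, 1.00 and 0.71 on wildtype and 3.21, 3.72, 4.05, 2.30 and 2.02 on neoplasia, with no overlap and with neoplasia 4 and 5 the lowest of the 5. The difference was 2.13 ± 0.47 (SE), 4.37-fold, adjusted p = 0.0142, and a second probe gave 2.06 (adjusted p = 0.016). Oas1a was not called without wildtype 1, 2 or 3, where adjusted p reached 0.053. Oasl1, an inactive relative that restrains translation of Irf7, read -1.09, -1.11 and -1.42 on wildtype and 1.34, 0.66, 2.08, 0.32 and 0.40 on neoplasia, again with neoplasia 4 and 5 the lowest and neoplasia 3 the highest. The difference was 2.17 ± 0.41, 4.49-fold, adjusted p = 0.0076.

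Oas3 was not well above background on any wildtype array and was on neoplasia 1, 2 and 3. Its mean measured signal in neoplasia was 3.23-fold above the dimmest detected signal on the wildtype arrays. That mean includes neoplasia 4 and 5, which were not well above background, so the fold is not a strict lower bound. The lack of overlap between groups for Oas3 also rests on values that were not well above background. Measured values were -6.05, -6.96 and -6.06 on wildtype and -2.90, -3.09, -2.56, -4.40 and -5.59 on neoplasia, and the limma fit gave an adjusted p = 0.0233, which exceeded 0.05 without wildtype 1, 2 or 3 (up to 0.0911). Oas2 differed by 0.62 ± 0.70 (adjusted p = 0.512) and read 0.20, -0.13 and 0.14 on wildtype and 0.96, 1.47, 2.34, -0.39 and -0.92 on neoplasia, so that neoplasia 1, 2 and 3 lay above wildtype and neoplasia 4 and 5 below. Oasl2 differed by 0.10 (adjusted p = 0.877). Oas1a, Oas2 and Oas3 lie together on mouse chromosome 5 (chr5:120896256-120907544, chr5:120730333-120749886 and chr5:120753098-120777684) in a family of near copies. Probe sequences were not used here, so hybridisation of a probe to a close relative was not checked.

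The Ifit genes, whose proteins bind viral RNA, did not pass. Ifit3 read -0.07, -0.13 and -1.01 on wildtype and 0.59, 1.23, 2.12, -1.05 and -0.94 on neoplasia, a difference of 0.79 ± 0.74 (adjusted p = 0.428). Ifit1 read -2.53, -3.09 and -2.71 on wildtype and -2.04, -1.34, -0.18, -3.35 and -3.03 on neoplasia, a difference of 0.79 ± 0.68 (adjusted p = 0.391). For both genes neoplasia 1, 2 and 3 were above the 3 wildtype arrays, neoplasia 4 was below them and neoplasia 5 was inside their range. Ifit2 differed by 0.85 (adjusted p = 0.265). The Ifit genes lie side by side on mouse chromosome 19, and near copies of Ifit3 make its probe uncertain.

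Bst2, which encodes tetherin, was the member with the most negative difference. It read 4.91, 4.71 and 5.44 on wildtype and 4.12, 4.60, 4.70, 3.03 and 2.86 on neoplasia. All 5 neoplasia arrays lay below the 3 wildtype arrays, and neoplasia 4 and 5 were the lowest. The difference of -1.16 ± 0.48 did not pass (adjusted p = 0.0987). It was below 0 under each of the 19 alternatives and passed the threshold under 3 of them, the authors' deposited log2 values, quantile normalization and the row of neoplasia 5 alone.

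**Figure D2:**
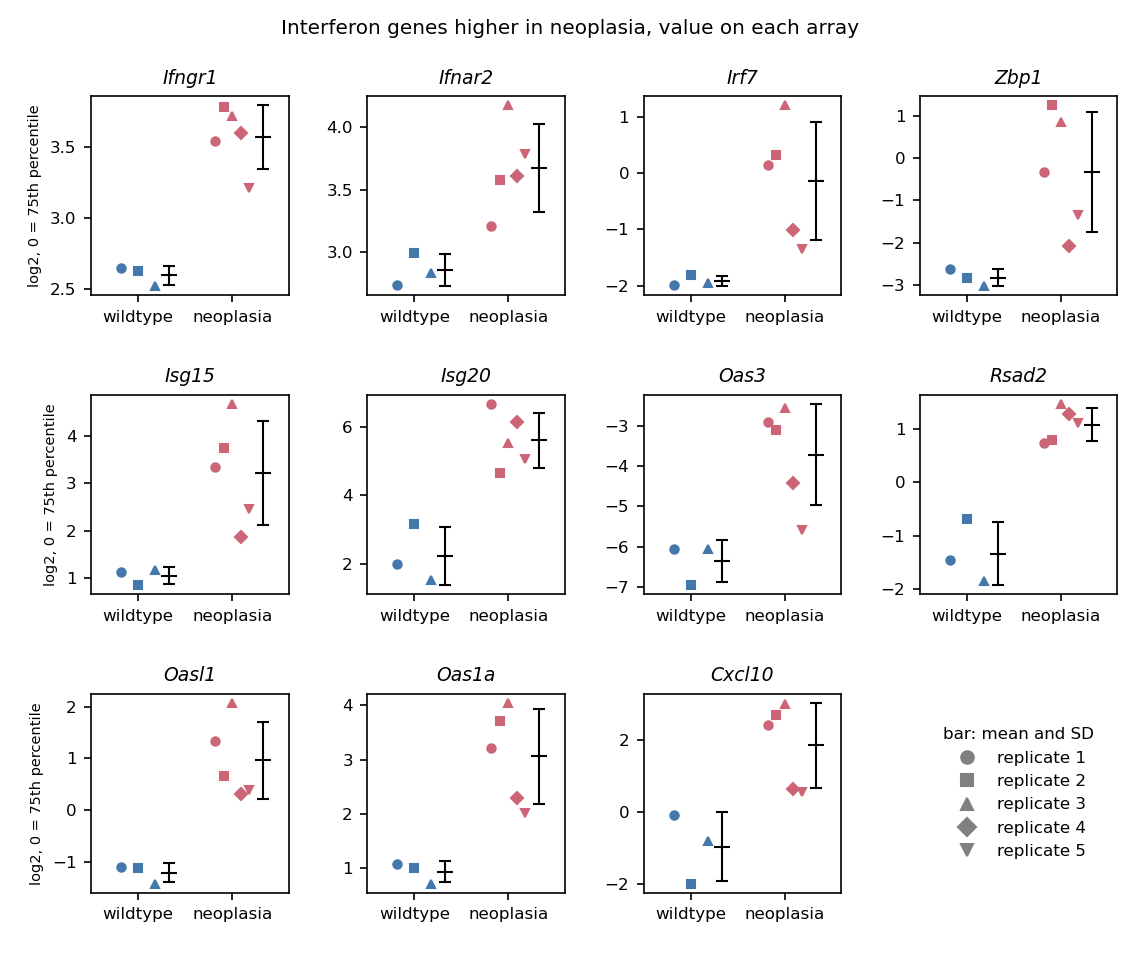
Log2 value on each array, relative to the array's 75th percentile, of the 11 genes that were higher in neoplasia, with wildtype in blue (3 arrays), neoplasia in red (5 arrays), the mean and SD as black bars, and an axis range of its own for each gene. Neoplasia 4 and 5 (diamond and lower triangle) are the lowest of the 5 for Irf7, Zbp1, Isg15, Oas3, Oasl1, Oas1a and Cxcl10, and all 5 are close together for Rsad2.

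Guanylate-binding proteins are GTPases that interferon gamma induces strongly, and 0 of the 3 measured passed the limma test, against 17.0% of all features. Gbp2 read 2.51, 2.16 and 1.81 on wildtype and 1.19, 4.09, 3.48, 0.08 and 1.85 on neoplasia, a difference of -0.02 ± 0.85 (adjusted p = 0.987). Neoplasia 2 and 3 were above the wildtype arrays, and neoplasia 1 and 4 were below them. Gbp3 differed by 0.19 (adjusted p = 0.842) and Gbp5 by 0.20 (adjusted p = 0.871). The 3 genes lie together on mouse chromosome 3. Parp9, Parp14 and Dtx3l are a mono-ADP-ribosyltransferase group, and Dtx3l is the ubiquitin ligase partner of Parp9. None of the 3 passed. Parp14 read 1.58, 1.23 and 1.31 on wildtype and 0.92, 2.09, 3.03, 0.51 and 1.36 on neoplasia and differed by 0.21 (adjusted p = 0.783), Parp9 differed by 0.09 (adjusted p = 0.89), and Dtx3l by -0.09 (adjusted p = 0.908). Dtx3l read 1.05, 0.91 and 0.82 on wildtype and 0.36, 1.82, 1.93, -0.49 and 0.55 on neoplasia, and its second probe differed by 0.04. No gene of the 6 in these groups had an unadjusted p under 0.05 in the limma fit.

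Of the 4 remaining targets, 1 was higher (25%, beside 17.0% of all features). Cxcl10, a chemokine that draws activated T cells, read -0.09, -2.0 and -0.81 on wildtype and 2.40, 2.69, 3.0, 0.62 and 0.54 on neoplasia. Neoplasia 1, 2 and 3 were the highest, and neoplasia 4 and 5 were lower but above every wildtype array. The difference was 2.82 ± 0.71 (SE), 7.04-fold, adjusted p = 0.0215, and it was not called without wildtype 2 or 3 (adjusted p up to 0.087). Ifi44, an interferon target that restrains viral replication, read -2.77, -2.30 and -3.11 on wildtype and -0.91, -1.03, 0.61, -1.79 and -2.22 on neoplasia, without overlap. Its difference of 1.66 ± 0.59 did not pass (adjusted p = 0.0623), but passed without neoplasia 5. Rtp4, a receptor transporter induced by type I interferon, read 2.46, 2.14 and 2.38 on wildtype and 2.23, 3.07, 4.14, 1.51 and 1.94 on neoplasia and differed by 0.25 (adjusted p = 0.745). Xaf1, a proapoptotic target, read 0.52, 0.12 and -0.23 on wildtype and 0.78, 1.47, 2.21, -0.50 and 0.40 on neoplasia, a difference of 0.74 (adjusted p = 0.334). Its second probe read -4.16, 1.12 and 1.05 on wildtype and -4.88, -3.58, -2.06, 0.58 and -2.10 on neoplasia, a difference of -1.75 (adjusted p = 0.397), so the probes disagreed in sign and neither passed. The second was not well above background on neoplasia 1.

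The 5 neoplasia arrays were not alike in these genes. On neoplasia 2 and on neoplasia 3, 40 of the 41 genes (97.6%) were above all 3 wildtype arrays, where 45.5% and 47.7% of all features were. The exception on both was Bst2. On neoplasia 1 the count was 25 (61.0%, all features 48.4%), on neoplasia 4 it was 20 (48.8%, all features 48.1%) and on neoplasia 5 it was 18 (43.9%, all features 40.9%). Genes below all 3 wildtype arrays numbered 9, 1, 1, 18 and 11 on neoplasia 1 to 5, and 36.3%, 34.5%, 34.8%, 36.1% and 37.8% of all features were below. Neoplasia 4 and 5 thus had shares above wildtype close to those of all features, and neoplasia 2 and 3 had shares far above them. This description was not tested, since the arrays of 1 group are its replicates.

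**Figure D3:**
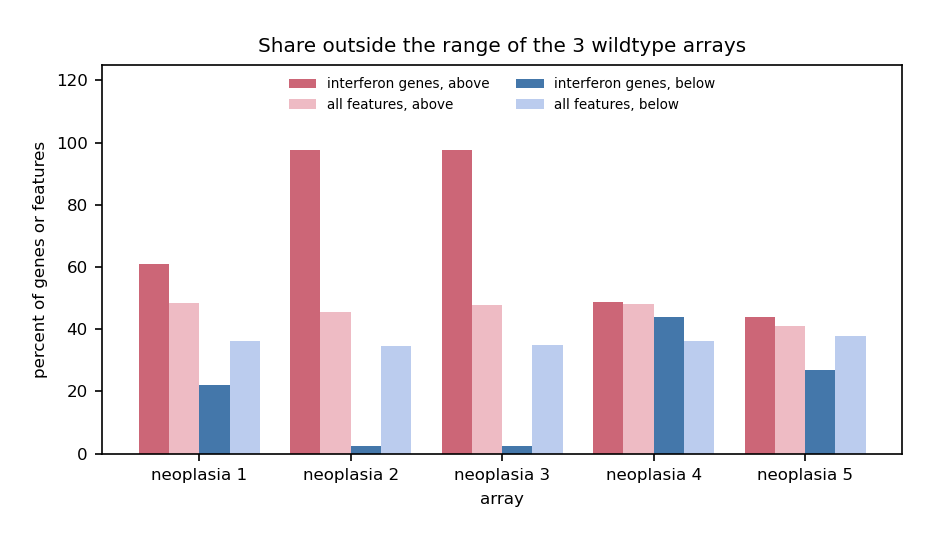
Percent of the 41 interferon genes (dark bars) and of all 25216 features (light bars) that were above (red) or below (blue) all 3 wildtype arrays, for each neoplasia array. The red dark bar reaches 97.6% on neoplasia 2 and neoplasia 3, and on neoplasia 4 it stands at 48.8% beside 48.1% for all features; after spike-in scaling neoplasia 2 and 3 stand at 70.7% and 58.5%, beside 20.3% and 11.1% of all features.

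Sizes followed the same division. The median difference of the 41 genes from the wildtype mean was 0.58, 1.33, 1.48, 0.17 and 0.10 on neoplasia 1 to 5, and that of all features was between 0.05 and 0.18. For 28 of the 41 genes (68.3%) neoplasia 3 was the highest of the 5 arrays, beside 15.8% of all features, and neoplasia 2 was for 9. After spike-in scaling, which moves every feature of an array by 1 constant, 32, 29, 24, 10 and 5 genes were above all wildtype arrays on neoplasia 1 to 5, and so were 62.6%, 20.3%, 11.1%, 24.4% and 8.98% of all features. As shares of the 41 genes those counts on neoplasia 2 and 3 were 70.7% and 58.5%. In the authors' values, which are not scaled, the counts were 15, 38, 38, 11 and 10, beside 25.3%, 36.3%, 29.1%, 28.6% and 21.1% of all features. Which array was highest also moved with that shift of all features, to neoplasia 1 for 26 of the genes with spike-ins. Neoplasia 1 had the lowest spike-in signal, which raises all its features under that scaling. The matching share of all features is not given here. The SD over arrays was larger in neoplasia than in wildtype for 39 of the 41 genes (95.1%), beside 84.5% of all features. The median SD of the genes was 0.20 in wildtype and 0.87 in neoplasia, and that of all features 0.20 and 0.47.

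**Figure D4:**
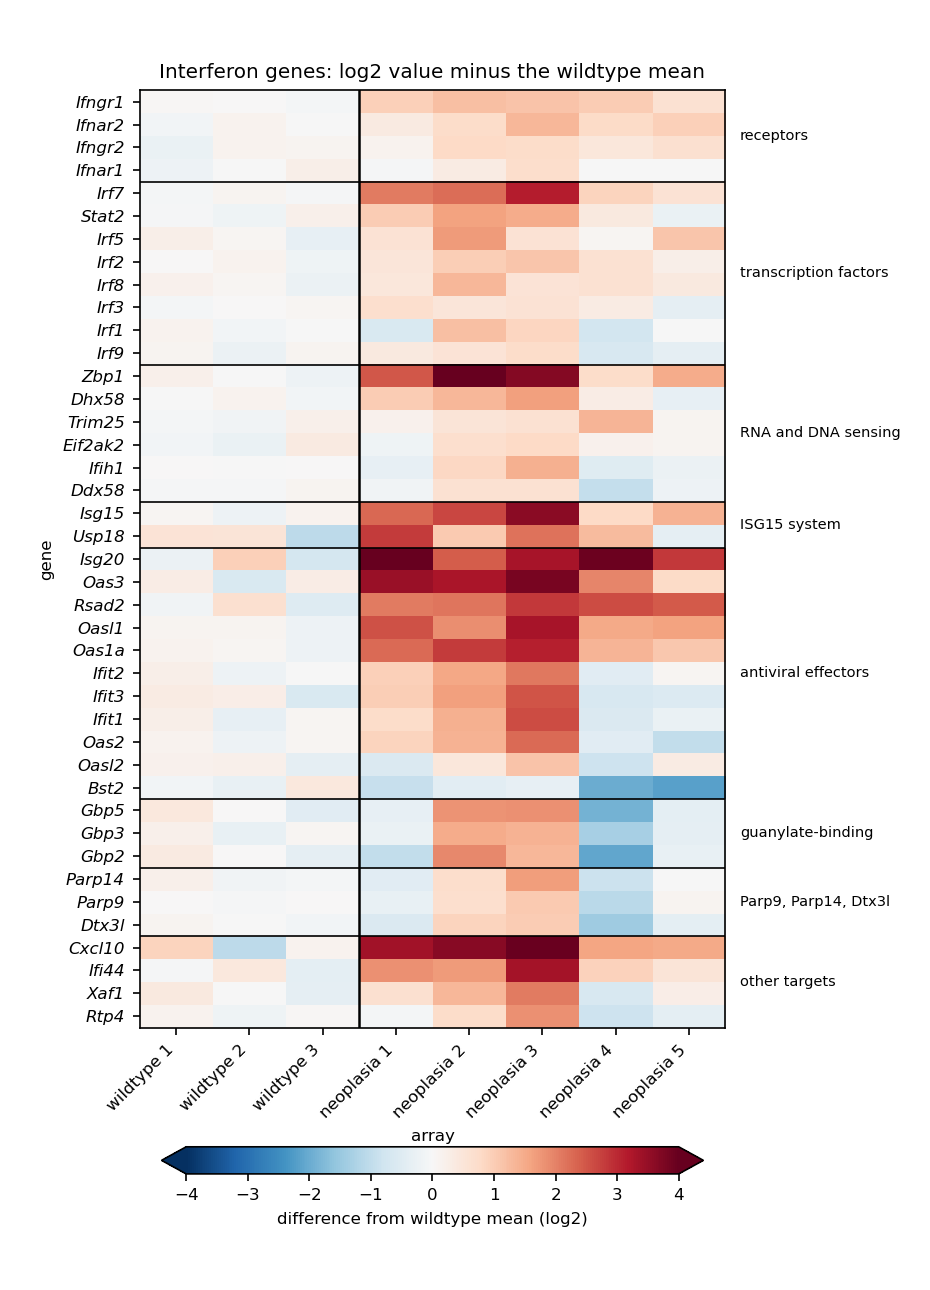
Difference of each of the 41 genes from its wildtype mean (log2) on each of the 8 arrays, grouped by role, with colours ending at -4 and 4, on the scale of the 75th percentile. The columns of neoplasia 2 and 3 are red for nearly all genes, with Bst2 blue on both, and the Gbp and Parp9 group is blue on neoplasia 4.

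The ligands were near the lower limit of the arrays. Of 18 interferon genes listed, 15 had a probe and 9 were tested. Ifna5 was higher, by 0.76 ± 0.24 (adjusted p = 0.044), and Ifnk, the keratinocyte interferon, was lower, with a difference of -2.04 ± 0.23 (adjusted p = 0.00083), and was well above background on 1 of 5 neoplasia arrays. Ifnb1, the interferon beta gene, stood well above background on 2 of the 5 neoplasia arrays and on 0 of the 3 wildtype arrays. Ifng, the interferon gamma gene, was so on 1 of 3 and 3 of 5, read -4.95, -5.89 and -6.68 on wildtype and -4.11, -1.30, -1.94, -6.70 and -4.30 on neoplasia, and did not pass (difference 2.17 ± 1.14, adjusted p = 0.173). Interferon alpha genes are near copies of each other, and no value here tells them apart.

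Other genes of the pathway were counted from lists chosen by function, with earlier results of these data known. The counts are set beside 17.0% of all features higher and 13.3% lower, and are descriptions only. Of 15 signalling genes 4 were higher and 1 lower. Jak2, a kinase of the interferon gamma receptor, was higher by 1.39 ± 0.34 (adjusted p = 0.0198), Ptpn11, a phosphatase, by 1.62 ± 0.40 (adjusted p = 0.0203), and Stat3, a factor shared by many cytokines, by 0.76 ± 0.22 (adjusted p = 0.0336). Jak1, the kinase shared by both receptors, was lower by the same fit (-1.06 ± 0.20, adjusted p = 0.00737), with 4.70, 4.52 and 4.85 on wildtype and 3.29, 3.55, 3.79, 3.64 and 3.88 on neoplasia. Of 14 genes of nucleic acid sensing 4 were higher and 0 lower. They were the adaptor Myd88 (1.00 ± 0.19, adjusted p = 0.00734), the adaptor Ticam1 (1.49 ± 0.29, adjusted p = 0.00801), the RNA receptor Tlr7 (1.15 ± 0.24, adjusted p = 0.0114) and Sting1, the adaptor of cytosolic DNA sensing (1.21 ± 0.31, adjusted p = 0.0221).

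Of 36 further type I targets tested, 5 were higher and 1 lower, close to or below the background shares, with a median of 0.33. Ly6e, a surface protein that affects viral entry, read 4.45, 4.41 and 3.88 on wildtype and 8.08, 7.66, 7.80, 8.74 and 6.6 on neoplasia and was higher by 3.53 ± 0.44 (adjusted p = 0.00122). The galectin gene Lgals9 was higher by 1.38 ± 0.30 (adjusted p = 0.0124) and Lgals3bp, a secreted galectin-binding protein gene, by 1.95 ± 0.53 (adjusted p = 0.0274). The remaining pair, named after their values were seen, were Ifi35 (1.00 ± 0.28, adjusted p = 0.0297) and Cd274, which encodes the checkpoint ligand PD-L1 (2.02 ± 0.60, adjusted p = 0.0374). Ifitm1, a membrane restriction factor, read 3.42, 4.07 and 2.08 on wildtype and -2.08, 1.04, 0.42, -0.56 and 1.18 on neoplasia and was lower, with a difference of -3.19 ± 0.79 (adjusted p = 0.0205). Of 15 interferon gamma targets tested, 1 was higher, the chemokine gene Cxcl9, which read -2.76, -4.90 and -3.38 on wildtype and 0.71, 3.12, 2.36, -1.86 and -0.34 on neoplasia (difference 4.48 ± 1.1, adjusted p = 0.0201). The median of that list was 0.74. Over the 5 lists 15 of 89 genes were higher (16.9%), close to the 17.0% of all features. The 3 lower genes stand beside 13.3% of all features lower. In 69 of the 89 (77.5%) the fitted difference was above 0 on this scale, beside 56.3% of all features. The median difference was 0.54, beside 0.14 over all features. The count of 15 higher genes was 4, 5 or 5 without wildtype 2, 1 or 3 and 9 without neoplasia 3.

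Markers of several blood cell types were also measured, and their counts stand beside 17.0% of all features higher and 13.3% lower. Of 12 macrophage markers 10 were higher, with a summed signal, in units of the 75th percentile, of 50.7–62.1 on wildtype and 130–255 on neoplasia. On neoplasia 1 to 5 the macrophage sums were 160, 255, 133, 130 and 177, beside interferon gene medians of 0.58, 1.33, 1.48, 0.17 and 0.10. Summed T cell markers were 3.18–4.25 on wildtype and 3.33–13.8 on neoplasia, with 2 of 7 genes higher. On neoplasia 1 to 5 the T cell sums were 5.28, 13.8, 6.85, 3.33 and 4.38, with the highest 3 on neoplasia 1, 2 and 3. The highest 3 interferon gene medians were on the same arrays. The order depended on the measure. The median T cell marker difference from the wildtype mean was 0.00, 2.65, 1.17, -1.12 and 0.38, so neoplasia 5 lay above neoplasia 1. Of 3 pan-leukocyte markers 2 were higher (sums 2.47–3.89 and 5.90–15.9). On neoplasia 1 to 5 the pan-leukocyte sums were 6.05, 15.9, 7.66, 5.90 and 9.07, with neoplasia 5 above neoplasia 1 and 3. Of 5 neutrophil markers tested 3 were higher (0.765–1.77 and 3.48–29.4). The neutrophil sums on neoplasia 1 to 5 were 7.34, 3.48, 29.4, 5.80 and 26.4. Neoplasia 3 and 5 were the highest in that list and neoplasia 2 the lowest, unlike the interferon gene medians. Each sum covers every listed marker with a probe, tested or not. These were 7 for neutrophils, 6 for dendritic cells, 5 for NK cells and 6 for erythrocytes.

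Of 4 plasmacytoid dendritic cell markers 1 was higher, Cox6a2, and the sums were 91.5–98 on wildtype and 110–121 on neoplasia. Of 5 dendritic cell markers tested 1 was higher and 1 lower (0.898–2.36 and 3.17–6.95), and no array had Xcr1 well above background. The dendritic cell sums on neoplasia 1 to 5 were 3.97, 6.95, 4.98, 3.17 and 6.33, with neoplasia 5 above neoplasia 1 and 3. Of 3 NK cell markers tested 0 passed the limma test and 0 had an unadjusted p under 0.05 (0.472–0.619 and 0.475–1.19), and no array had Ncr1 well above background. The NK cell sums on neoplasia 1 to 5 were 0.961, 1.11, 1.19, 0.475 and 0.605. Like the T cell sums, they had the highest 3 on neoplasia 1, 2 and 3. Of 4 B cell markers 1 was lower (sums 0.356–0.985 and 0.502–1.31). The B cell sums on neoplasia 1 to 5 were 0.566, 1.31, 0.781, 0.502 and 0.731, with neoplasia 5 above neoplasia 1. All 5 erythrocyte markers tested were higher (9.39–27.1 and 379–1726). The part of any of these cells in the interferon gene values was not tested.

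**Figure D5:**
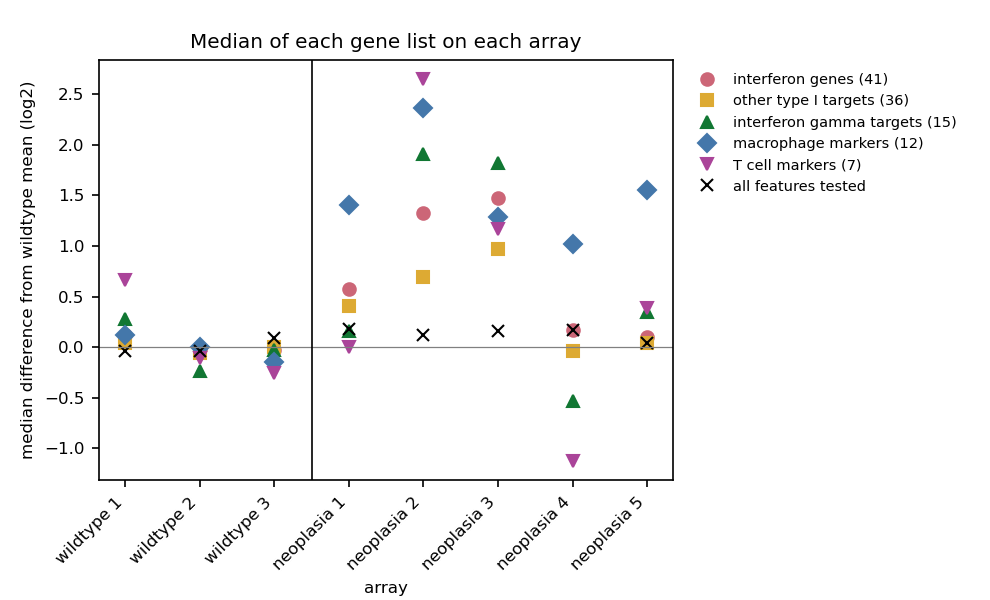
Median log2 difference from the wildtype mean on each array for the 41 interferon genes, 36 further type I targets, 15 interferon gamma targets, 12 macrophage markers, 7 T cell markers and all features tested. The interferon gene medians are 1.33 and 1.48 on neoplasia 2 and 3 and 0.17 and 0.10 on neoplasia 4 and 5, while the macrophage medians are at or above 1.02 on all 5.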

How the data were processed

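Total RNA of whole ovaries, labelled with Cy3 per the labels' protocols, was measured on 8 arrays of 62976 spots, all on 1 slide and 1 scan. Per the file headers, signals were extracted with Agilent Feature Extraction 11.0.1.1, and the deposited intensity used here is its processed signal, which is background-subtracted and spatially detrended. The authors also deposited log2 values, in 37932 lines, each within 0.001 of log2 of the mean processed signal over the spots of an accession. These are not scaled between arrays, and Partek is named, with no stated role, in the submitters' processing notes.

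Outlier-flagged and control spots were left out, spots of a probe were averaged, and log2 signal was set relative to each array's 75th percentile. A probe with every spot flagged on an array kept its flagged value there, which concerned 168 probes. The normexp alternative left no flagged spot out. Probes were named through RefSeq (GRCm38.p6): 26582 of 55681 matched a symbol. A feature was its brightest probe, tested if well above background on 3 or more of the 8 arrays. Neoplasia was compared with wildtype by limma 3.58.1 (lmFit and eBayes, R 4.3.3) with Benjamini-Hochberg adjustment, and the code was tested on simulated data with known changes. Precision is limited by the number of arrays, 3 and 5.

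Every gene of the set is accounted for. Values on every array are given for called genes, for genes whose probes disagree and for the gene of each role with the highest mean signal among those that did not pass (a choice of what to print, not a comparison of levels), and some others are added as examples. From other lists, up to 4 called genes with the lowest adjusted p are named, and any named beyond that are said to be. Some genes of the signalling list are not reported here by name. The genes and lists were chosen with earlier results of these data known. Alternatives were other background corrections, scalings, filters and probe rules, slide row, a replicate block and leaving out each array. Same-numbered arrays of the 2 groups did not deviate together (correlations -0.05, -0.03 and 0.00).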

Additional observations from a re-analysis of the deposited data

Results flagged for a closer look

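Each of the 41 genes was searched for 1 neoplasia array that stood apart from the other 4 in log2 value, by Dixon's rule at a ratio of 0.71 for 5 arrays, which chance meets in about 1 group in 20. It was met once, by Irf8, whose value of 3.16 on neoplasia 2 lay above the other 4 neoplasia arrays. The fitted difference of Irf8 did not pass the limma test with all 8 arrays (adjusted p = 0.0786) or in any fit that left out 1 array.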

How the results depend on the processing

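No fitted difference of a called gene changed sign. The count of interferon genes higher was 11, with 6 in the authors' log2 values, 3 with spike-in scaling, 1 with slide row as a block, 6 in the row of neoplasia 5 alone and 4 to 17 when 1 array was left out. The count lower was 0, and 1 (Bst2) in the authors' values, with quantile normalization and in that row alone. The count of other pathway genes higher was 15, with 24 under normexp, 4 in the authors' values, 2 with spike-ins, 4 with slide row as a block and 4 to 21 when 1 array was left out. All features called numbered 7647, with 4866 under spike-in scaling, 4684 under the replicate block, 1525 with slide row as a block and 2825 to 9961 when 1 array was left out. Same-numbered arrays showed no pairing. In the fit with a replicate block neoplasia 4 and 5 have no wildtype partner, so it compares only arrays 1 to 3 of each group. It called 12 interferon genes higher (29.3%, beside 8.06% of all features). Its share of all calls that were higher was 43.4%, and that share was 68.3% for features above background on all arrays. The median of the interferon genes, 0.69, was 0.19 in the authors' values, 0.08 with spike-ins, 0.10 with slide row as a block and 0.51 to 0.84 when 1 array was left out. The cause of these changes was not tested. The alternatives for the other pathway genes were added after the data were seen. Signal near background limits Oas3 and the interferon ligands.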
